A study of Mus musculus with 12 samples.

Results

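The POU genes other than the ES cell factor Pou5f1 were examined as 9 members, Pou1f1, Pou2f1, Pou2f2, Pou2f3, Pou3f2, Pou3f3, Pou4f1, Pou4f2 and Pou6f1, in the merged list of open chromatin regions from mouse ES cells depleted or not of OCT4 or SOX2. Every region that overlapped the gene body of a member or the 50 kb to either side was taken, which gave 160 of 170548 regions (0.0938%) in windows that sum to 1.278 Mb. These regions were between 138 and 2029 bp wide with a median of 460 bp, and together they covered 94.1 kb. Other POU genes are given only for comparison.

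ATAC-seq marks accessible DNA by letting a transposase insert sequencing adapters into it. The labels give 12 libraries in 6 groups of 2 replicates, described as biological duplicates. Whether published data from ZHBTc4 cells in serum and LIF without the inhibitors also entered the merged list is not given in the sources used here. ZHBTc4 cells carry Pou5f1 under a Tet-Off promoter, so that doxycycline (dox) shuts it off, and were OCT4 ON (no dox) or OCT4 OFF (1 µg/ml dox for 24 hr). 2TS22C cells carry Sox2 under such a promoter and were SOX2 ON or SOX2 OFF (1 µg/ml dox) at 26 hr and at 40 hr. All 6 groups grew in serum with LIF and the inhibitors CHIR99021 and PD184352, and each of the 2 lines is a single engineered ES cell line. The study's methods and staining describe residual SOX2 protein at the earlier of the SOX2 OFF times. All groups were pooled into 1 list without heights, so the line and treatment behind a region are unknown, a region open in few cells cannot be told apart from one weakly open in all, and no difference between ON and OFF cells was measured. All 10 genes of an ES cell pluripotency list had a region within 1 kb of a transcription start site (TSS). A region over a TSS was present in 9 of them, all but Dppa3. Among all protein-coding genes the shares were 74.7% and 68.9%. The median density of the list was 20.07 regions per 100 kb, against 10.22 over all protein-coding genes.

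POU proteins bind DNA through 2 linked domains, a POU-specific domain and a POU homeodomain, and many recognize the octamer ATGCAAAT or variants of it. POU2F1 is expressed in nearly every cell type and POU2F2 chiefly in B cells, where it acts on immunoglobulin genes. POU2F3 is the identity factor of tuft cells and is also found in epidermis. POU1F1 drives the hormone genes of the anterior pituitary. POU3F2 and POU3F3 act in neural progenitors and cortical neurons, POU4F1 in sensory neurons, POU4F2 in retinal ganglion cells, and POU6F1 is found mainly in brain.

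A region edge lay at most 1 kb from a TSS in 8 of the 9 members (88.9%, 95% Wilson interval 56.5% to 98%), and in 74.7% of all 21938 protein-coding genes. The same 8 members had a region over a TSS, against 68.9% of protein-coding genes. Pou1f1 was the member without one. The ubiquitous Pou2f1 and the neural genes Pou3f2, Pou3f3, Pou4f1 and Pou4f2 thus shared an open start site in the pooled list. Pou2f3 and Pou6f1 had one too. At Pou2f2 the only TSS under a region was that of a retained-intron transcript. Its coding TSSs were not covered, and the closest had a region edge at 0.468 kb. With 9 genes the interval holds the share of all genes.

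The number of regions ran from 9 at Pou3f2 to 34 at Pou2f2. Per 100 kb of window, the density was 17.67 at Pou2f2, 14.44 at Pou6f1, 13.89 at Pou2f1, 12.54 at Pou4f2, 11.17 at Pou3f3, 10.73 at Pou2f3, 9.61 at Pou1f1, 9.41 at Pou4f1 and 8.52 at Pou3f2. The median over all protein-coding genes was 10.22, with quartiles of 5.70 and 15.08. Thus 8 members lay between the quartiles and Pou2f2 above them, at percentile 85.7 of all genes. The density at Pou1f1, the pituitary gene, was above that of 46.4% of protein-coding genes and so near their median. The density carries no replicate error, since each gene is counted once in 1 list.

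**Figure D1:**
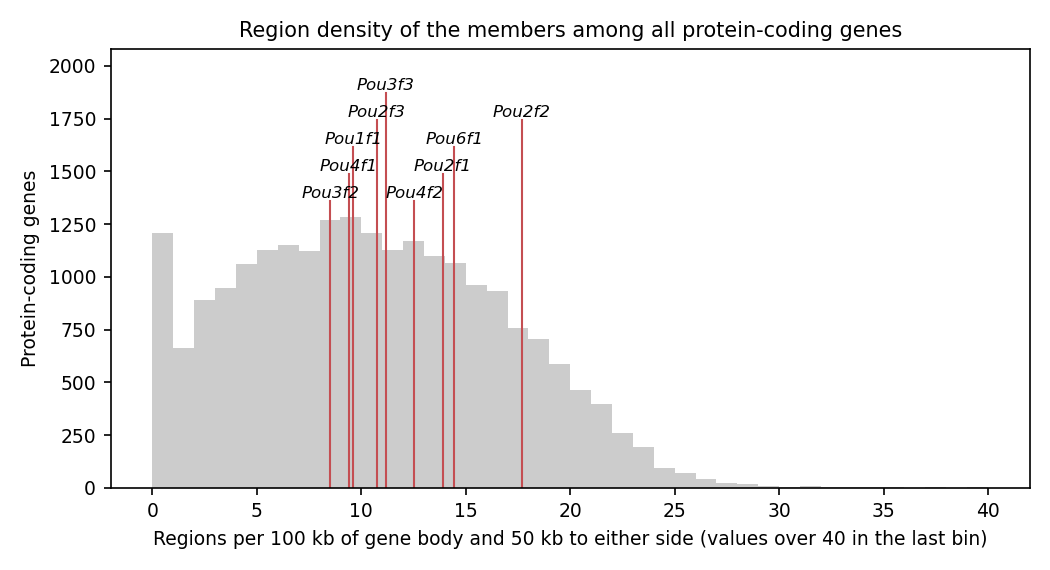
Histogram of the number of regions per 100 kb of gene body and 50 kb to either side (x axis) over 21938 protein-coding genes (y axis, genes per bin of 1), with a red line at each of the 9 members. The members run from 8.52 at Pou3f2 to 17.67 at Pou2f2 around the all-gene median of 10.22.

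Pou2f1 (ENSMUSG00000026565.18, minus strand, chr1:165865154-166002678) had 33 regions, of which 17 overlapped the gene body. Its widest region, chr1:166001632-166003660 with 2029 bp, covered the 5′ end of the gene and was wider than 96.4% of the regions over the 5′ ends of protein-coding genes, whose median was 1135 bp. The region was the sole one within 5 kb of the 5′ end. It covered 7 of the 14 annotated TSSs of Pou2f1, and an internal coding TSS 123 kb into the gene was covered by a 223 bp region. Of the regions of Pou2f1, 26 were distal, which means that their center lay more than 1 kb from every annotated TSS. The nearest annotated TSS belonged to Pou2f1 for 13 regions, to Cd247, which encodes a chain of the T cell receptor complex, at the 3′ side, for 6, and to the predicted gene Gm7626 at the 5′ side for another 6.

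An octamer, with no mismatch, was found in 2 regions of Pou2f1, both upstream of the gene. They are shown in the direction of the gene, with the octamer in capitals in the first. The second holds an octamer inside a match to the OCT4::SOX2 composite motif. This motif is here the SOX element CNTTGT, 1 base of any kind and the octamer, with at most 2 mismatches in all. The whole match is in capitals, and its 2 mismatches both lie in the SOX element.
Pou2f1 −31.1 kb, chr1:166033765-166033812, minus strand: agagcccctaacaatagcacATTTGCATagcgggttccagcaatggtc
Pou2f1 −39.2 kb, chr1:166041898-166041952, minus strand: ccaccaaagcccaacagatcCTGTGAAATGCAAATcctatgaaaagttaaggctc
The first sits on the opposite strand, so the octamer reads as its reverse complement. The regions were 344 bp and 587 bp wide, the former in an intron of Gm26665 and the latter intergenic. The element ATGNATAT, a simple form of the POU1F1 site searched on both strands, was present in 4 regions of Pou2f1, the one over the 5′ end included.

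Pou2f2 (ENSMUSG00000008496.19, minus strand, chr7:25087344-25179726) had the most regions of all members, 34, of which 12 overlapped its body and 24 were distal. An 833 bp region covered the 5′ end of the gene, where the annotation holds a retained-intron transcript. The 3 coding TSSs 47.2 kb into the gene were covered by no region, but an 841 bp region began between 0.468 and 0.503 kb upstream of them. The fourth coding TSS, 58.9 kb into the gene, had its nearest region at 5.14 kb. The CpG ratio (observed over expected CpG dinucleotides, 500 bp to either side) was 0.81 at the gene's 5′ end and 0.4 at its first coding TSS. The widest region of Pou2f2, 900 bp, lay 23.8 kb into the gene. Of the 34 regions, 11 had Pou2f2 as the gene of the nearest TSS and 6 had the glutamate receptor gene Grik5.

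Pou2f3 (ENSMUSG00000032015.16, minus strand, chr9:43123939-43210369) had 20 regions, 12 of them in its body and 13 distal. Its 559 bp region over the 5′ end, chr9:43210010-43210568, was narrower than most, at percentile 6.5 of the regions over 5′ ends. A second coding TSS 4.61 kb into the gene was covered by a region of 782 bp, chr9:43205456-43206237. The CpG ratio at the 5′ end was 0.28, the lowest among the members and below the all-gene median of 0.55. The region widest in this window, 1507 bp, lay in an intron of the neighbouring gene Tmem136, 94.0 kb from the 5′ end.

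Most octamers of the members were found at Pou2f3. Of the 6 member regions with an octamer, 4 belonged to Pou2f3 and they held 6 of the 8 matches. Both regions over its coding TSSs were among them, and the other 2 lay in introns 10.1 and 21.5 kb into the gene. They are shown because the octamer is the site that POU2 proteins recognize. Capitals mark octamers on either strand, in the direction of the gene.
Pou2f3 +0.223 and +0.202 kb, chr9:43210123-43210179: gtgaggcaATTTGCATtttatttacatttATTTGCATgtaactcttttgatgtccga
Pou2f3 +4.39 kb, chr9:43205952-43205999: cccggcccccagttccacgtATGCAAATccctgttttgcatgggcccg
Pou2f3 +9.97 and +9.92 kb, chr9:43200380-43200476: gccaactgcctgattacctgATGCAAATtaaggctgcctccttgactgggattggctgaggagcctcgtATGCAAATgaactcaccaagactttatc
Pou2f3 +21.5 kb, chr9:43188882-43188929: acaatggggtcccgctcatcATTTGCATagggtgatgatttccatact
The pair near the start lies in the first intron, 8 and 29 bases past the end of a first exon of 190 bases. Within its region the match at +21.5 kb was 26 bases from the center, and the others were between 122 and 219 bases from theirs. Among all protein-coding genes, 0.529% had at least 4 octamer-bearing regions in their window and 66.7% had none. These shares take no account of window size or of Pou2f3 being singled out for its count. Its window held 20 regions, against a median of 14 over all gene windows. A region with an octamer was found in the other members only at Pou2f1, and 7 members had none. Since a match is a stretch of letters, it does not tell whether any protein was bound.

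**Figure D2:**
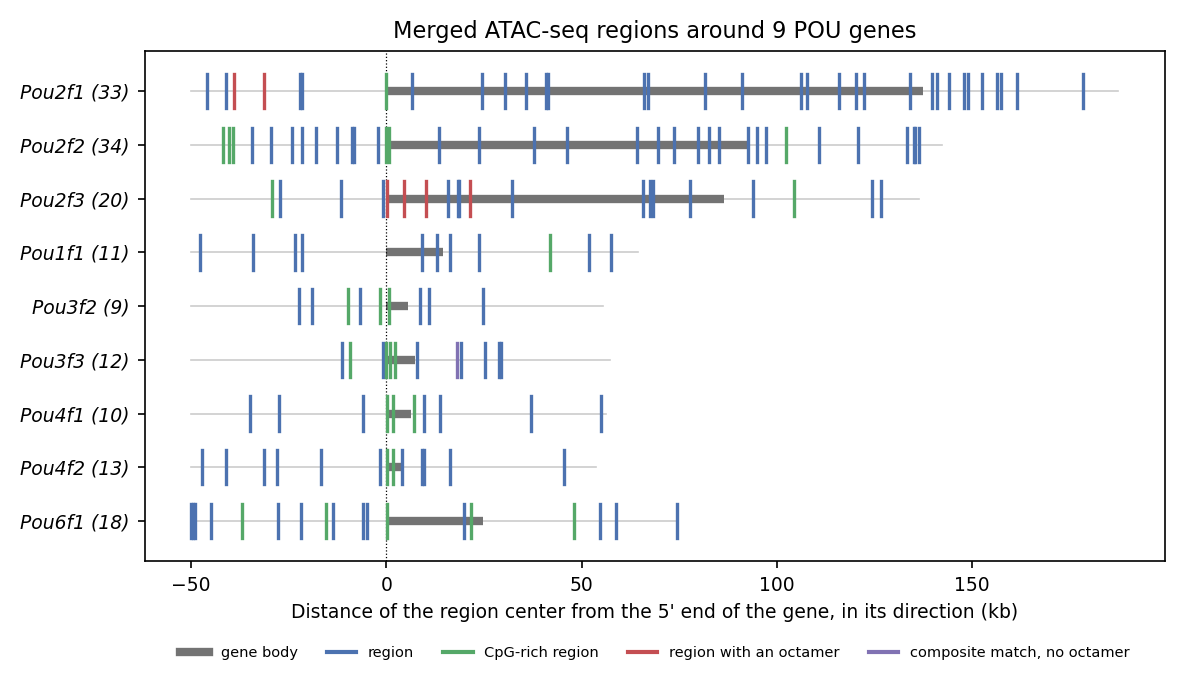
Map of the 160 regions around the 9 members, each drawn as a vertical line at the distance of its center from the 5′ end of the gene (x axis, kb, in the direction of the gene), with the gene body as a grey bar and the number of regions after each name. The red lines with an octamer sit at Pou2f3 (4 regions, in the first 21.5 kb of the gene) and upstream of Pou2f1 (2 regions), and the purple line is a composite match without an octamer at Pou3f3.

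Over all members, 6 of 160 regions held an octamer (3.75%, interval 1.73% to 7.94%), against 3.72% of all regions. Without Pou2f3 the share was 1.43%. The composite motif was matched in 2 of 160 regions (1.25%, interval 0.343% to 4.44%), against 2.4% of all regions, and ATGNATAT in 9 (5.62%, interval 2.99% to 10.3%), against 4.14%. All 3 intervals hold the share over all regions, so by share of regions no excess or lack of these sites was seen over the members together. Member regions were wider, however, with a median of 460 bp against 379 bp. Octamers occurred 8.5 times per 100 kb of member regions, 8.63 times per 100 kb of all regions and 9.13 times per 100 kb of genome. For the composite motif these rates were 2.12, 5.01 and 3.93, the first from only 2 matches. For ATGNATAT they were 12.7, 9.48 and 36.5. Differences in these rates were not tested. RefSeq promoter windows, from 250 bases before to 50 bases after a start, were given for 8 members (all but Pou2f3, 11 windows in all). Searched over their full length, 0 of the 11 held an octamer, against 1.74% of the 32851 windows given for all genes. With so few windows and so low a share, this count cannot show a lack of octamers. It also leaves out Pou2f3, whose octamer at +4.39 kb lies just upstream of its coding TSS at 4.61 kb.

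Pou1f1 (ENSMUSG00000004842.18, plus strand, chr16:65520511-65535005) was the only member with no region at a start site. The region nearest to its 5′ end began 8.83 kb into the gene, chr16:65529345-65529978, 634 bp wide and intronic, and it lay 6.07 kb from the downstream coding TSS. None of the 4 annotated TSSs had a region within 1 kb. Of its 11 regions, 10 were distal and 2 lay in the gene body. The widest, 1590 bp, was centered 41.9 kb from the 5′ end, in an intron of Chmp2b, a gene of the endosomal sorting machinery. Pou1f1 was the gene with the nearest TSS for 3 of the 11 regions, all upstream between −34.2 and −21.6 kb.

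Pou3f2 (ENSMUSG00000095139.2, minus strand, chr4:22482780-22488366) is a gene of a single exon with 9 regions, the fewest of the members. Its 5′ end was covered by a region of 1918 bp, at percentile 94.8 for width, and a second region of 1295 bp was centered 1.57 kb upstream. Wide regions continued into the flanks, with 1686 bp at −9.77 kb and 1565 bp at +8.68 kb. The median width of the 9 regions was 807 bp, the highest of the members, against 379 bp over all regions. Of the 9 regions, 8 were intergenic, and the nearest TSS belonged to Pou3f2 for 4, to the predicted gene Gm30731 for 3 and to Gm11878 for 2.

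Pou3f3 (ENSMUSG00000045515.3, plus strand, chr1:42695768-42703176), also of a single exon, had 12 regions. The one over its 5′ end was narrow, 452 bp and percentile 4.1, but 4 regions lay within 5 kb of that end, and the one at +2.23 kb, 1680 bp, was the widest at this gene. Together the 4 covered 2817 bp within 5 kb of the 5′ end, at percentile 98.7 of all genes. The long non-coding genes Pantr1 and Pantr2 flank Pou3f3, and 6 of the 12 regions had Pantr2 as the gene with the nearest TSS. A composite match with 2 mismatches lay in a 1284 bp region centered at +18.1 kb, close to a Pantr2 TSS, and it is the only such match among the POU3F and POU4F genes. The match is in capitals.
Pou3f3 +17.8 kb, chr1:42713525-42713579, plus strand: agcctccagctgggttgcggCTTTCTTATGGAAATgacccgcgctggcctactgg
The same region also held an ATGNATAT element.

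Pou4f1 (ENSMUSG00000048349.9, minus strand, chr14:104461676-104467999) had 10 regions, with a 1230 bp region over its 5′ end and an 1117 bp region at +1.80 kb in its own exons. Its widest region, 1798 bp, was intergenic at −5.92 kb. The neighbouring gene D130079A08Rik was the gene of the nearest TSS for 5 of the regions, all on the 3′ side. Pou4f2 (ENSMUSG00000031688.4, minus strand, chr8:78433010-78436645) had 13 regions, of which 4 lay within 5 kb of its 5′ end. The widest, 1313 bp, was the one over the start, and 8 of the 13 had Pou4f2 as the gene with the nearest TSS. At both genes the region over the 5′ end exceeded the all-gene median of 1135 bp in width.

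Pou6f1 (ENSMUSG00000009739.17, minus strand, chr15:100575318-100599984) had 18 regions. A 1940 bp region, at percentile 95.2 for width, covered its 5′ end. Distal regions made up 44.4% of its regions, the lowest share of the members, and the window also held CpG-rich regions at Tfcp2, Dazap2 and Smagp. Only 3 of the 18 had Pou6f1 as the gene with the nearest TSS.

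**Figure D3:**
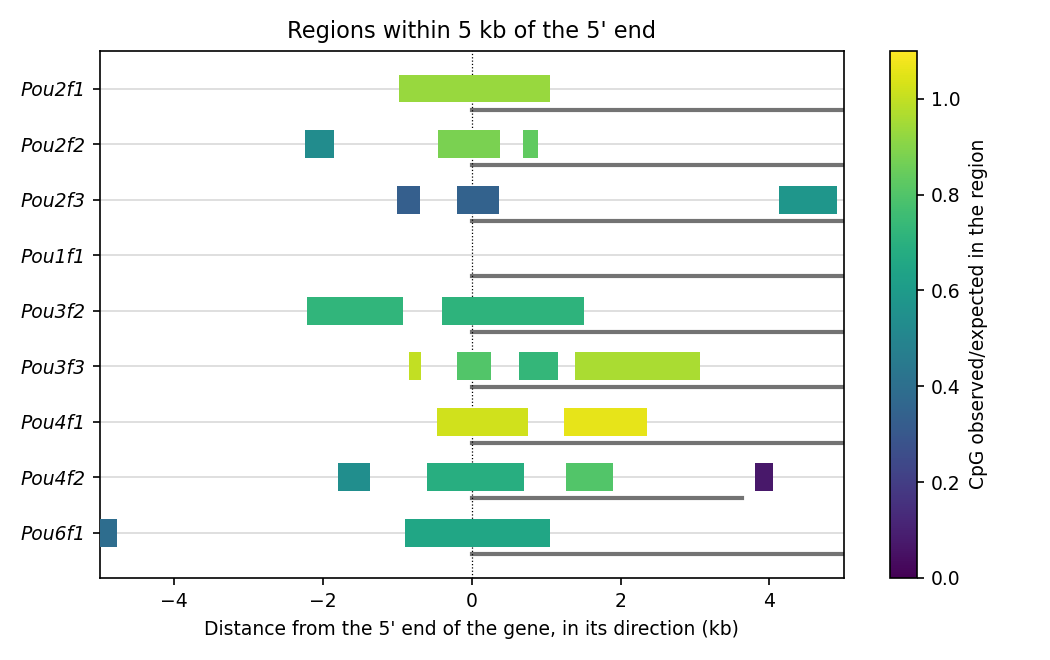
Regions within 5 kb of the 5′ end of each member, drawn to scale (x axis, distance from the 5′ end in kb, in the direction of the gene), with color for the CpG observed/expected ratio of the region and a grey line for the gene body. Pou1f1 has no region here, Pou2f1 has 1 of 2029 bp, and Pou3f3 and Pou4f2 have 4 each.

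The covered length within 5 kb of the 5′ end was highest at the 4 POU3F and POU4F genes. It was 3213 bp at Pou3f2, 2817 bp at Pou3f3, 2613 bp at Pou4f2, 2347 bp at Pou4f1, 2164 bp at Pou6f1, 2029 bp at Pou2f1, 1653 bp at Pou2f3, 1427 bp at Pou2f2 and 0 bp at Pou1f1. The median over all protein-coding genes was 1149 bp with an upper quartile of 1553 bp. The 4 POU3F and POU4F genes lay at percentiles 99.6, 98.7, 98.0 and 96.0. Pou2f1 reached percentile 91.3 with its single wide region, whereas the POU3F and POU4F genes reached theirs with between 2 and 4 regions. Both this measure and the grouping by family were chosen after the values were seen, and no test was made.

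The base composition at the start sites differed widely among the members. The CpG ratio was 1.02 at Pou4f1 and 0.99 at Pou2f1, above 98.7% and 97.6% of protein-coding genes. It was 0.81 at Pou2f2, 0.80 at Pou3f2, 0.75 at Pou6f1, 0.72 at Pou4f2, 0.66 at Pou3f3, 0.34 at Pou1f1 and 0.28 at Pou2f3. The value of Pou2f2 is that of a retained-intron transcript, and its first coding TSS had 0.40. The all-gene median was 0.55. The narrowest region over a 5′ end, 452 bp, was at Pou3f3 and thus not at one of the CpG-poor members. Promoter sequence before the start (250 bases, RefSeq, GRCm38.p6) is shown for the ubiquitous gene, the neural gene with the highest ratio and the pituitary gene, with each CpG in capitals.
Pou2f1, chr1:166002635-166002884, minus strand: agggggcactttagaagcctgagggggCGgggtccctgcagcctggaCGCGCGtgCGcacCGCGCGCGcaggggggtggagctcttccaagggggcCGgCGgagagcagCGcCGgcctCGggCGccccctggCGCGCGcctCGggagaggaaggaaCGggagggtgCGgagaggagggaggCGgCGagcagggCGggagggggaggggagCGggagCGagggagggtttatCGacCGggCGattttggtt
Pou4f1, chr14:104468000-104468249, minus strand: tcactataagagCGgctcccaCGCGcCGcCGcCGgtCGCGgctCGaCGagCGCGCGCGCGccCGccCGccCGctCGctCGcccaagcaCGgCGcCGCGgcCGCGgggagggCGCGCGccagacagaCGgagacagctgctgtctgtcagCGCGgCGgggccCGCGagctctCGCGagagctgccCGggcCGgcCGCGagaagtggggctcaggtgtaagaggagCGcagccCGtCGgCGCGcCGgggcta
Pou1f1, chr16:65520262-65520511, plus strand: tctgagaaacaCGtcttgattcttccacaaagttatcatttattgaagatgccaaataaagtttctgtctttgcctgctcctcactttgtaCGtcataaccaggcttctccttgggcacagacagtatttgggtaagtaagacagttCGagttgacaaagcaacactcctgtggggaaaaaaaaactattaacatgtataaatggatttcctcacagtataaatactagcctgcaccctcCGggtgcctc
The 250 bases hold 29 CpGs at Pou2f1, 47 at Pou4f1 and 4 at Pou1f1. Over the same 250 bases of all promoter windows the median was 6, with quartiles of 2 and 16. Windows at internal starts of Pou2f1, chr1:165934949-165935198 and chr1:165953072-165953321, held 2 CpGs each. At an internal start of Pou1f1, chr16:65523059-65523308 held 0. A gene used in nearly all cells and a sensory neuron gene thus each had a CpG-dense start near the 5′ end, lying within a region of the list. The pituitary gene had neither such a start nor a region at its starts. Pou2f3, with the lowest ratio of the members (0.28), nevertheless had a region over each of its coding TSSs.

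**Figure D4:**
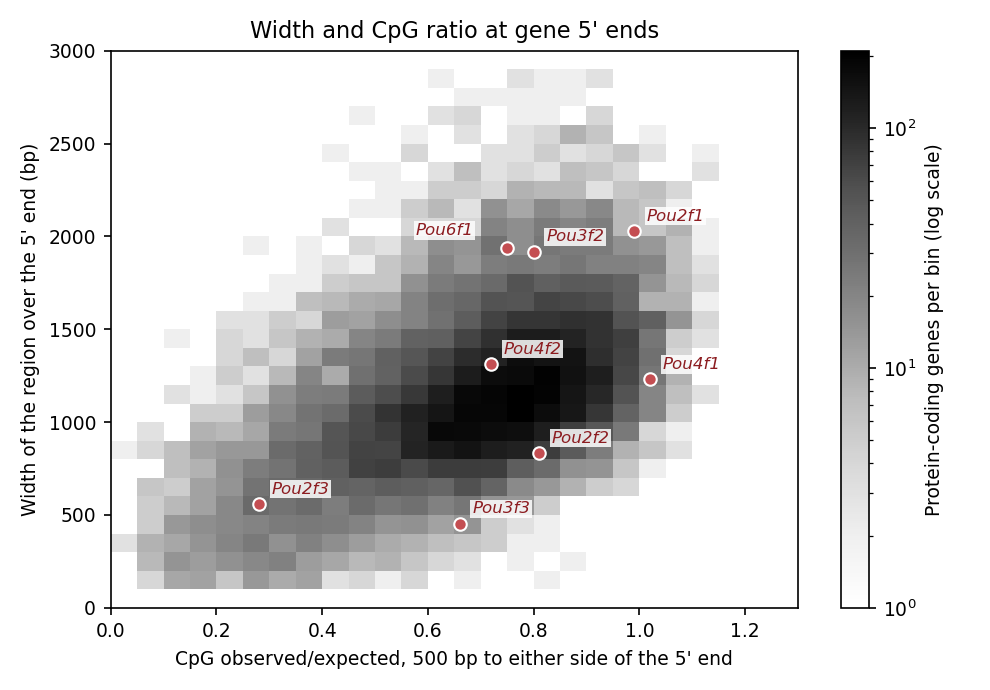
Width of the region over the gene 5′ end in bp (y axis; wider regions than the axis holds are not drawn) against the CpG observed/expected ratio 500 bp to either side (x axis), for the protein-coding genes with such a region (grey, log scale of genes per bin) and for 8 members (red; Pou1f1 has no such region). Pou2f1, Pou3f2 and Pou6f1 sit at widths from 1918 to 2029 bp, and Pou2f3 and Pou3f3 at 559 and 452 bp.

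CpG-rich regions were a class defined after the data were seen. A region was called CpG-rich when it was at least 200 bp wide, its GC content was at least 50% and its CpG ratio was at least 0.6. This held for 28 of the 160 member regions (17.5%, interval 12.4% to 24.1%), against 8.88% of all regions. Of the 28, 22 were promoter-proximal, and these were 47.8% of the 46 promoter-proximal member regions, against 39.5% of all promoter-proximal regions. The members had between 1 and 6 CpG-rich regions each, with a median of 3, and the median over all protein-coding gene windows was 2. Distal regions were 114 of 160 (71.2%, interval 63.8% to 77.7%), against 82.7% of all regions. In the windows of all protein-coding genes, however, the median distal share was 75%, beside the member median of 70.6%.

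Among the distal regions alone, 6 of 114 member regions were CpG-rich (5.26%, interval 2.43% to 11%), against 2.49% of all distal regions. Of the 6, 5 were at the POU3F and POU4F genes, where 5 of 33 distal regions (15.2%) were CpG-rich, and the other was in an exon of Pou6f1 at +21.6 kb. At the 3 POU2 genes 0 of 63 were, which allows a share of up to 4.76%. The 5 were the −9.77 kb region of Pou3f2, the −9.21 kb and +2.23 kb regions of Pou3f3, the +7.18 kb region of Pou4f1 and the +1.58 kb region of Pou4f2. The +2.23 kb region of Pou3f3 and the +1.58 kb region of Pou4f2 lay in exons of these genes. At least 1 CpG-rich distal region was present in the window of 24.3% of protein-coding genes. The grouping by family was chosen after the values were seen, and the difference between the families was not tested.

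Genes around the members were described by lists. Of 7 partners of POU2 proteins, 6 had a region within 1 kb of a TSS: the snRNA activating complex genes Snapc1, Snapc2, Snapc3, Snapc4 and Snapc5, and Hcfc1. The exception was Pou2af1, the B cell coactivator, with 2 regions in its window. Of 7 pituitary genes around POU1F1, 4 had one, among them the LIM factors Lhx3 and Lhx4. The exceptions were Ghrhr, Prl and Tshb, the last 2 encoding prolactin and the thyrotropin beta chain. Of 6 tuft cell genes 5 had one, all but Avil, and 2 had it over a TSS, Dclk1 and Sox9. The neural genes Sox11, Nes, Dll1, Zic1 and Myt1l each had one, as did all 6 sensory and retinal genes, including Neurog1, Neurog2 and Isl1. The lists were chosen with earlier results in view, hold few genes and were not tested, and 74.7% of all protein-coding genes have such a region.

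The other POU genes frame these values. Pou5f1 itself had 26 regions, or 24.82 per 100 kb, at percentile 99.1, with 3 composite-bearing regions, whereas the densest member, Pou2f2, stood at percentile 85.7. Pou3f1 had 19 regions, Pou4f3 had 15, Pou5f2 had 5 and Pou3f4 had 2. Each of these 5 genes had a region over a TSS, which Pou1f1 did not.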

How the data were processed

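ATAC-seq was performed by the authors in ZHBTc4 and 2TS22C cells, and reads were aligned to mm10 (GRCm38) with STAR 2.6.1c, deduplicated with Picard and called with MACS 2.1.1.20160309, before peaks of all these experiments were merged with BEDTools. The deposited values are start and end positions in bp, with no score, read number or value per sample, so depth is unknown and no test between conditions could be made. Whether peaks were called per replicate is not given in the sources used here.

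The reference was GRCm38.p6 with GENCODE M21 (positions counted from 1) and RefSeq promoter windows. Regions overlapping a member's gene body or 50 kb to either side were taken. Motifs were searched on both strands. Backgrounds were all regions or all 21938 protein-coding genes, and shares carry 95% Wilson intervals, which cover counting error only. Members and gene lists were chosen with earlier results of these data known. Named were the 9 genes, other POU genes, the listed partner and target genes (some are not reported here), the genes nearest to the regions and, per gene, its TSS, nearest, widest and motif-bearing regions; single regions beyond these were picked after their values were seen. Alternatives changed the window, width filter, joining, TSS set, motif stringency and CpG limits. The functions were tested on simulated data. The scripts ran under Python 3.11.15 with pandas 2.3.3, NumPy 2.4.6, matplotlib 3.10.9 and SciPy 1.17.1.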

Additional observations from a re-analysis of the deposited data

How the results depend on the processing

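Of 23 alternative values over 8 results, 17 moved by less than their interval or by less than 1.5 times. A window of 20 kb to either side held 106 member regions in place of 160. With TSSs of protein-coding genes alone the distal share was 78.1% (86.5% over all regions). With distal regions alone the median member density was 7.45 per 100 kb (6.89 over all protein-coding genes). Searching the central 200 bp left 0.625% of member regions with an octamer (2.01% over all regions), and allowing 1 mismatch gave 26.9% (31.3%). A CpG ratio of at least 0.75 gave a CpG-rich share of 8.75% (4.23%). The count of 8 members with a region within 1 kb of a TSS was the same under its 4 alternatives. The CpG-rich share and the covered length within 5 kb, with their alternatives, and the use of protein-coding transcripts for the 1 kb call and the CpG ratio were added after seeing the data. No paired analysis was possible because every library was merged into 1 set of regions, and for the same reason no replicate could be left out. No region carries a height, so which libraries gave a region, and how strongly it was open, is unknown.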

Other observations

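Repeat content differed between the octamer-bearing regions. The −31.2 kb region of Pou2f1 was 98.5% soft-masked (repeat-derived in the reference), whereas its −39.0 kb region was 18.9% soft-masked and the 4 octamer regions of Pou2f3 were between 3.6% and 17.0%. More than 50% of the sequence was soft-masked in 14 of the 160 member regions (8.75%), all of them distal, and in 16.8% of all regions.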
